A study of Mus musculus with 6 samples.

Results

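The nuclear genes for the proteins of the mitochondrial ribosome were followed in mouse kidney. They were taken by symbol, as every gene called Mrpl (large subunit) or Mrps (small subunit) with a number, pseudogenes left out. This gave 78 of the 34714 genes in the table, 49 for the large and 29 for the small subunit. Whole-kidney RNA had been sequenced from wild-type C57BL/6J mice and from mice labelled Hspa8 knockout, 3 libraries each, all from animals aged 8 weeks and kept on normal chow. The product of Hspa8 is HSC70, a chaperone of the HSP70 family present in unstressed cells. The breeding notes name a floxed Hspa8 allele (Hspa8 flox/flox) and Cdh16-Cre mice, and do not say whether the sequenced mice came from a cross of these or whether the wild-type mice carried either. Cdh16 encodes kidney-specific cadherin, and its promoter is active in tubule epithelium, so such a cross would leave Hspa8 intact in the other cells of the kidney. Nothing in the labels ties each library to an animal of its own, so a p-value here reflects the scatter of these 6 libraries, some of which may be technical.

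Mitochondria keep their own ribosome, which makes a few membrane subunits of the respiratory chain and ATP synthase from messengers of the mitochondrial genome. Its RNAs are encoded there, whereas all of its proteins are encoded in the nucleus, made in the cytosol and imported, often with the help of cytosolic HSP70 and HSP90 chaperones. Proteins with a counterpart in the bacterial ribosome surround the RNA core, and proteins found only in mitochondria form much of the outer shell. Kidney tubules are rich in mitochondria because salt and solute reabsorption uses much ATP.

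Levels are in FPKM, which counts sequenced fragments per unit of transcript length and of mapped total, so they can be compared between genes on a per-length scale. Hspa8 itself stood at 1058, 1092 and 1318 FPKM in the wild-type libraries and at 650.1, 699 and 781 FPKM in the knockout libraries. The groups did not overlap, and the log2 fold change was -0.70 (SE 0.12), yet this gene did not pass the test over all genes either (limma adjusted p = 0.866). The remaining level is that of the whole organ, in which fewer cells with a transcript and less transcript per cell cannot be told apart. FPKM values carry no read totals, so the depth of the libraries is unknown; their summed FPKM ran from 381586 to 417123. Proximal tubule markers (12 of 12 above 1 FPKM) summed to 5300–5656 FPKM in wild-type kidneys against 5584–5741 FPKM in knockout kidneys. Of the 10 endothelial markers, 10 had a lower mean in knockout, with sums of 135–187 FPKM in wild-type kidneys against 103–135 FPKM in knockout kidneys. Of 5 red cell markers, the 4 with a mean of at least 1 FPKM had a higher mean in knockout. All 5 together summed to 43.3–53.4 FPKM in wild-type kidneys against 69.4–546 FPKM in knockout kidneys. The part of these differences in any result given here was not tested.

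All 78 genes were expressed. Their mean over the 6 libraries ranged 32.0-fold, from 4.24 FPKM for Mrpl19 to 136 FPKM for Mrpl12, and 65 of them lay between 10 and 60 FPKM (39 large, 26 small). The median gene of the large subunit stood at 30.0 FPKM and that of the small subunit at 27.2 FPKM.

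Mrpl12 encodes the flexible stalk protein that recruits translation factors, the counterpart of bacterial L7/L12. It measured 134, 130.0 and 139 FPKM in wild-type kidneys against 136, 144 and 131 FPKM in knockout kidneys, a narrow and overlapping spread. Mrps21, for a small basic protein of the small subunit, followed at 109.6, 121 and 169 FPKM in wild-type kidneys against 122, 136 and 98.5 FPKM in knockout kidneys. Wild-type 3 was its highest library and knockout 3 its lowest. Mrpl42, for a protein found only in mitochondria, stood at 105, 107 and 132 FPKM in wild-type kidneys against 107, 123 and 97.0 FPKM in knockout kidneys. The range of Mrps21 held that of Mrpl12 and overlapped most of that of Mrpl42, and those of Mrpl12 and Mrpl42 met between 130.0 and 132 FPKM. In every library each of these 3 genes was above every other member. Next by mean came Mrpl30 (54.5–75.3 FPKM), Mrps6 (43.9–81.1 FPKM), Mrpl24 (44.7–72.6 FPKM), Mrpl18 (54.05–61.6 FPKM) and Mrps36 (47.4–64.5 FPKM), which could not be ordered beyond their spread.

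At the low end, 8 members had a mean under 10 FPKM. Mrpl19, for a protein at the interface of the subunits, ranged from 3.95 to 4.43 FPKM over the 6 libraries. Mrpl17 ranged from 4.78 to 5.93 FPKM and Mrpl35 from 6.72 to 8.01 FPKM, so these 3 genes kept their order without overlap. Mrps25, the lowest of the small subunit, ranged from 5.98 to 9.96 FPKM and met the range of Mrpl35 but not that of Mrpl17. The other low genes of the small subunit were higher, Mrps27 at 13.6–14.2 FPKM and Mrps31 at 13.8–18.5 FPKM. Mrps27, for an RNA-binding pentatricopeptide repeat protein, was also the steadiest member, with a highest library only 1.04 times its lowest.

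**Figure D1:**
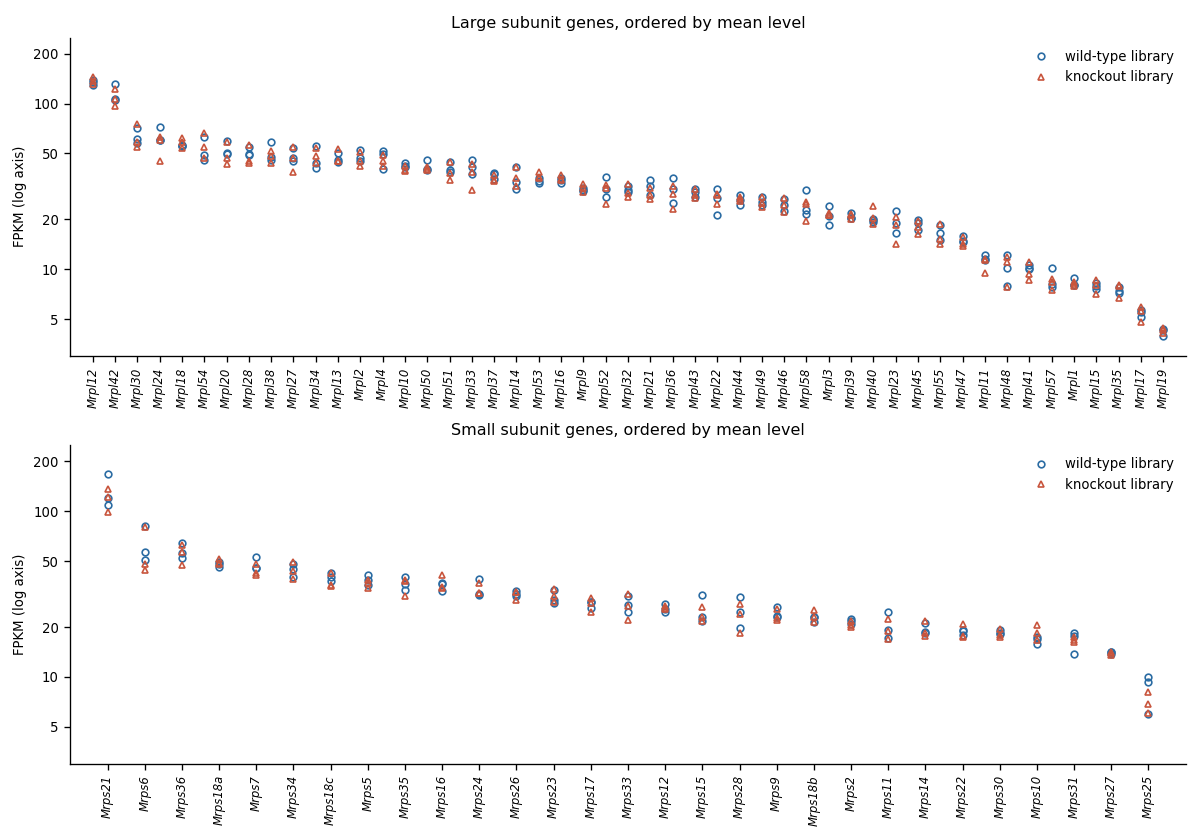
FPKM on a log axis for each of the 49 large-subunit genes (top) and 29 small-subunit genes (bottom), ordered by mean level; circles are the 3 wild-type libraries and triangles the 3 knockout libraries. Levels span 32.0-fold between genes, while circles and triangles of the same gene intermingle for all but Mrpl53.

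Between knockout and wild-type kidneys no change was detectable in any of the 78 genes. No member passed limma's moderated test with Benjamini-Hochberg adjustment at 0.05 over the 12174 genes with a mean of at least 1 FPKM, and neither did any other gene (percent called 0.0). At an unadjusted limma p under 0.05 there were 629 genes in the table (5.17%) and 0 of the 78 members; the smallest unadjusted p of a member was 0.18. The median log2 fold change, knockout minus wild-type on the log2(FPKM + 1) scale, was -0.03 for the large and -0.02 for the small subunit, beside -0.04 over all tested genes. A positive fold change was found for 25 members and a negative for 53, and 35.1% of all tested genes were positive. By subunit, 18 of 49 large and 7 of 29 small members were positive.

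These signs depend on scaling and on single libraries. With the library sums made equal, 42 of 78 were positive (49.8% of all tested genes), and with the library medians made equal, 49 of 78 (53.5%); the medians of the large and small subunit were then 0.01 and 0.02, and 0.02 and 0.03. Leaving out wild-type 3 gave 47 positive members (33.4% of all tested genes), leaving out knockout 2 gave 11 (32.2%), and leaving out knockout 3 gave 49 (39.6%). The fold changes are therefore given relative to no fixed zero, and no direction is read for the family.

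The median standard error was 0.10 on the log2 scale, and the largest fold change in either direction was -0.21, for Mrps25. For 76 of 78 members the 95% interval of limma lay within a 1.5-fold change either way (log2 of 0.58), beside 90.4% of all tested genes. The other two were Mrps25, with an interval from -0.62 to 0.20, and Mrps6, from -0.72 to 0.42. Changes smaller than those intervals could not be resolved with 3 libraries a group. The shares of members and of all genes were not matched for level. The median of the gene means was 29.5 FPKM for the members and 8.61 FPKM for all tested genes.

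**Figure D2:**
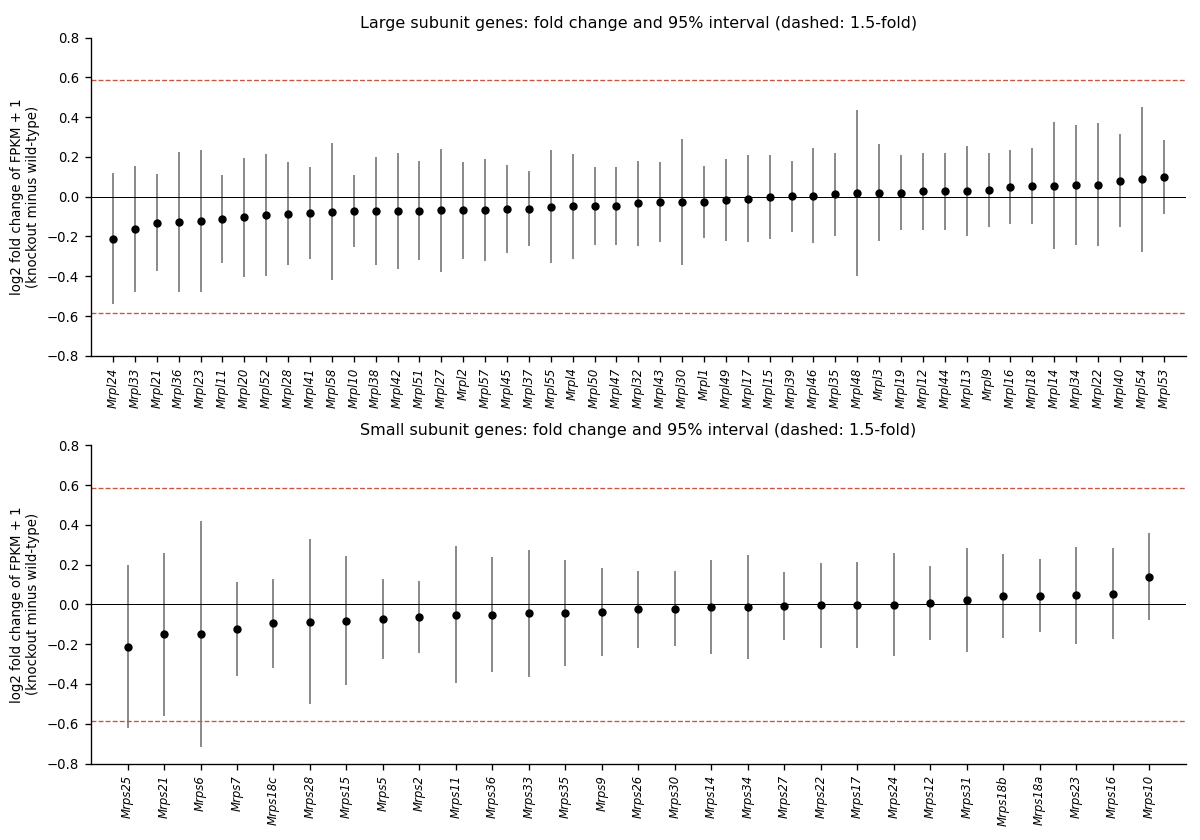
Log2 fold change (knockout minus wild-type, log2 of FPKM + 1) of each member with its 95% limma interval as a bar, large subunit above and small subunit below, each ordered by fold change; dashed lines mark 1.5-fold. Every interval spans 0, and only those of Mrps25 and Mrps6 cross a dashed line.

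Among the large-subunit genes, the 5 with the smallest p were Mrpl24, Mrpl53, Mrpl21, Mrpl33 and Mrpl11. Mrpl24, which encodes a protein near the exit of the peptide tunnel, stood at 60.1, 60.0 and 72.6 FPKM in wild-type kidneys against 59.9, 62.7 and 44.7 FPKM in knockout kidneys. Its highest library was wild-type 3 and its lowest knockout 3, and the other 4 lay between 59.9 and 62.7 FPKM. Its log2 fold change was -0.21 (SE 0.14; limma adjusted p = 0.998), and -0.06 without knockout 3. Mrpl33, for a short protein near the exit site of transfer RNA, had 37.7, 41.4 and 45.5 FPKM in wild-type kidneys against 38.4, 43.1 and 30.3 FPKM in knockout kidneys. Knockout 3 alone was below the wild-type range, and the log2 fold change of -0.16 (SE 0.14; limma adjusted p = 0.998) was -0.03 without it.

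Mrpl21 had 27.9, 31.8 and 34.5 FPKM in wild-type kidneys against 28.1, 31.0 and 26.4 FPKM in knockout kidneys. Its fold change was -0.13 on the log2 scale (SE 0.11). The groups overlapped, with 2 of the 3 knockout libraries inside the wild-type range. Mrpl11, a protein of the stalk base where translation factors bind, had 11.4, 11.6 and 12.2 FPKM in wild-type kidneys against 11.3, 11.6 and 9.47 FPKM in knockout kidneys. The difference was -0.11 on the log2 scale (SE 0.10), and -0.03 without knockout 3.

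Mrpl53 (GRCm38.p6 chr6:83109108-83109932, plus strand) was the sole member whose groups did not overlap. Its protein is found only in mitochondria. It measured 34.2, 33.2 and 35.6 FPKM in wild-type kidneys against 36.15, 38.8 and 35.7 FPKM in knockout kidneys. The nearest libraries of the groups were thus 35.62 and 35.72 FPKM. The log2 fold change was 0.10 (SE 0.08; limma adjusted p = 0.998), and the exact two-sided permutation test gave p = 0.1, the smallest that 3 against 3 allows. Over all tested genes, knockout was above wild-type without overlap in 2.01% and below it in 8.57%, and of the 78 members 1 was above and 0 below. The count without overlap was 7 with library sums equalised and 6 with medians equalised, all of them higher in knockout; of all tested genes 3.64% and 4.9% were then higher without overlap and 6.34% and 5.1% lower. Without knockout 2 it was 19, of which 18 were lower in knockout, and 23.9% of all tested genes were then lower without overlap. Without each of the other libraries it was 6 (wild-type 1), 3 (wild-type 2), 3 (wild-type 3), 2 (knockout 1) and 5 (knockout 3). In that order, 20.6%, 17.5%, 18.6%, 17.0% and 17.0% of all tested genes did not overlap, against 10.6% with all 6 libraries. In the GENCODE annotation 88.0% of the exon bases of Mrpl53 also belong to Gm42688, a gene model on the same strand. How the authors assigned shared reads is not known here.

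Among the small-subunit genes, Mrps10, Mrps25, Mrps7, Mrps18c and Mrps21 had the smallest p. Mrps10, for a protein of the head of the subunit, had 16.9, 17.4 and 15.9 FPKM in wild-type kidneys against 18.4, 20.5 and 16.8 FPKM in knockout kidneys. Its log2 fold change of 0.14 (SE 0.09; limma adjusted p = 0.998) was the largest positive value of the family, and knockout 3 lay inside the wild-type range. Mrps7, a head protein that contacts messenger and transfer RNA, had 45.2, 45.2 and 53.1 FPKM in wild-type kidneys against 42.5, 48.0 and 41.1 FPKM in knockout kidneys. Its log2 fold change was -0.12 (SE 0.10), and -0.05 without wild-type 3.

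Mrps25, for a protein found only in mitochondria, had 5.98, 9.27 and 9.96 FPKM in wild-type kidneys against 6.87, 8.14 and 6.02 FPKM in knockout kidneys. Wild-type 1 was its lowest library of all, so the groups overlapped fully at the low end. The log2 fold change of -0.21 (SE 0.18; limma adjusted p = 0.998) was -0.41 without wild-type 1 and -0.09 without wild-type 3. On the opposite strand 69.8% of its exon bases are shared with Nr2c2, a nuclear receptor gene at 1.76–5.64 FPKM. Mrps21, whose values are given above, had a log2 fold change of -0.15 (SE 0.18), which turned to 0.03 without wild-type 3.

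Several symbols do not match the place of the protein. In structures of the mammalian ribosome the products of Mrps18a (mL66 in the unified naming) and Mrps30 (mL65) sit in the large subunit, that of Mrps18b (mS40) and that of Mrps18c (bS18m) in the small, and Mrps36 (KGD4) encodes a subunit of the 2-oxoglutarate dehydrogenase complex rather than a ribosomal protein. The 3 Mrps18 paralogues differed in level. Mrps18a had 46.0, 49.4 and 48.2 FPKM in wild-type kidneys against 48.7, 51.5 and 48.0 FPKM in knockout kidneys. Mrps18c was lower, at 38.1, 40.3 and 42.6 FPKM in wild-type kidneys against 36.1, 42.1 and 35.3 FPKM in knockout kidneys, and Mrps18b lowest, at 21.4–23.1 FPKM in wild-type kidneys against 21.4–25.4 FPKM in knockout kidneys. The ranges of the 3 paralogues did not meet, and their log2 fold changes were 0.04, -0.09 and 0.04 in that order, with SE of 0.08 to 0.10.

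Mrps30 had 18.4, 18.1 and 19.3 FPKM in wild-type kidneys against 17.97, 19.6 and 17.4 FPKM in knockout kidneys. Mrps36 had 52.2, 55.6 and 64.5 FPKM in wild-type kidneys against 57.1, 62.2 and 47.4 FPKM in knockout kidneys, within the range of true ribosomal genes. Mrpl58 encodes a peptidyl-tRNA hydrolase that is built into the large subunit (mL62) and can release stalled chains. It measured 21.4, 22.7 and 30.1 FPKM in wild-type kidneys against 24.8, 25.6 and 19.6 FPKM in knockout kidneys, and wild-type 3 was its highest library. With the proteins sorted by place, and with the 5 subunits whose symbols follow another pattern added, the median log2 fold change was -0.03 for the 52 large and -0.03 for the 30 small members.

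The balance of the subunits overlapped between the groups. Sums were taken by symbol, so Mrps18a, Mrps30 and Mrps36 count with the small subunit here. The large subunit came to 1624, 1637 and 1837 FPKM in wild-type kidneys against 1644, 1825 and 1519 FPKM in knockout kidneys. For the small subunit the sums were 908, 934 and 1076 FPKM in wild-type kidneys against 918, 1049 and 850.2 FPKM in knockout kidneys. Both sums were highest in wild-type 3 and knockout 2 and lowest in knockout 3. The ratio of large to small was 1.79, 1.75 and 1.71 in wild-type (1.75 ± 0.041, SD, n = 3) and 1.79, 1.74 and 1.79 in knockout (1.77 ± 0.028, SD, n = 3), and the groups overlapped. Together the members made up 0.621% to 0.698% of all FPKM, and their sum averaged 2672 ± 209.6 FPKM in wild-type kidneys against 2602 ± 254 FPKM in knockout kidneys (SD, n = 3 each).

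The members shared a difference between libraries that cut across the genotypes. Each gene was set against its own mean over the 6 libraries on the log2(FPKM + 1) scale. The mean deviation of the 78 genes was -0.04, -0.02 and 0.11 in wild-type 1, 2 and 3 and -0.03, 0.11 and -0.13 in knockout 1, 2 and 3. Wild-type 3 and knockout 2 were thus high and knockout 3 low, across the genotypes. Of the 78 members, 63 were above their own mean in wild-type 3, 74 in knockout 2 and 8 in knockout 3. The highest library of a gene was wild-type 3 or knockout 2 for 66 members, and knockout 3 was the lowest for 49. Being above the own mean in both wild-type 3 and knockout 2 and below it in knockout 3 was found for 60 members (76.9%) and for 33.4% of all tested genes.

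The large and small subunit shared the pattern closely. The mean deviation in wild-type 3, knockout 2 and knockout 3 was 0.10, 0.11 and -0.14 for the large and 0.12, 0.12 and -0.13 for the small subunit. It was also present in the 46 members classed as having a bacterial counterpart (0.13, 0.12 and -0.14). The 31 classed as specific to mitochondria, with Mrps18a and Mrps18b among them, had 0.08, 0.11 and -0.12. Of other genes, the 82 cytosolic ribosomal protein genes had 0.23, 0.18 and -0.20 in those libraries. The 40 complex I genes had 0.20, 0.15 and -0.17, and the 47 genes of complexes II to V had 0.13, 0.14 and -0.14. The 5 mitoribosomal subunits of other symbols had 0.04, 0.20 and -0.17. Other lists were graded. The 28 mitoribosome assembly genes had 0.02, 0.04 and -0.08, and 9 regulators of mitochondrial biogenesis 0.04, 0.06 and -0.03. For 19 genes of mitochondrial DNA expression the values were -0.01, 0.04 and -0.05. The 19 mitochondrial translation factor genes had -0.07, 0.00 and 0.00, and the 17 mitochondrial tRNA synthetase genes -0.07, 0.00 and 0.02. These are descriptions of the same 6 libraries, with no test. Cell markers differed between these libraries as well. In the same order, 7 leukocyte markers deviated by 0.27, 0.32 and -0.33. All 10 leukocyte markers, untested ones included, summed to 152–204 FPKM in wild-type kidneys and 115–191 FPKM in knockout kidneys. The 8 fibroblast and mural markers deviated by 0.49, 0.02 and -0.28 (sums of 65.9–106 and 55.8–69.4 FPKM). Those of the proximal tubule (12 markers) deviated by -0.07, -0.07 and 0.01, and 4 red cell markers by -1.01, -0.67 and 2.26. The 10 endothelial markers deviated by 0.41, -0.04 and -0.32, and 6 podocyte markers by 0.30, -0.14 and -0.21. Opposite in sign to the members were 6 markers of the distal convoluted and connecting tubule, at -0.32, -0.25 and 0.43 (190.0–350.4 FPKM in wild-type, 202–384 FPKM in knockout), and 6 intercalated cell markers, at -0.13, -0.19 and 0.06 (94.6–129 and 88.1–116 FPKM). The 6 principal cell markers had 0.06, 0.26 and 0.09, and 3 adipocyte and 5 skeletal muscle markers were high in wild-type 3 alone, at 1.04 and 0.81. No marker of these lists was at 0 in all libraries, and their part in the shared pattern was not tested.

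**Figure D3:**
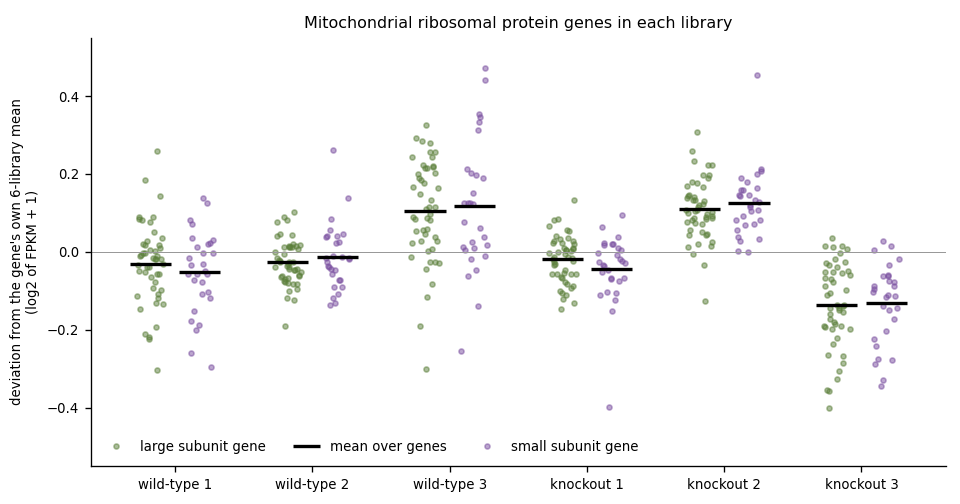
Deviation of each member from its own mean over the 6 libraries (log2 of FPKM + 1), by library; each point is a gene, large and small subunit side by side, and black bars are means. Both subunits are high in wild-type 3 and knockout 2 (means 0.10 to 0.12) and low in knockout 3 (-0.14 and -0.13).

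Transcript length varied along with this pattern. Members have short transcripts, with a median of 1052 bases in GENCODE against 2116 for all tested genes. In the 26 members of up to 811 bases the mean deviation was 0.16 in wild-type 3, 0.15 in knockout 2 and -0.19 in knockout 3. The 26 members of middle length had 0.10, 0.13 and -0.12, and the 26 above 1420 bases had 0.06, 0.07 and -0.09. Among all tested genes, medians in the same length classes were 0.12, 0.07 and -0.11 for 1357 short genes and 0.00, 0.00 and -0.03 for 7909 long genes. After the trend with transcript length was removed from each library, the members had -0.05, -0.02 and 0.04 in wild-type 1, 2 and 3 and 0.01, 0.07 and -0.05 in knockout 1, 2 and 3. Wild-type 1 was then as low as knockout 3, with 20 of 78 members above their own mean in wild-type 1 and 27 in knockout 3. After this correction 47 of 78 fold changes were positive, against 52.1% of 11361 genes with a length. The groups did not overlap for 6 members, all higher in knockout, while 5.0% of those genes were higher and 5.57% lower without overlap. Correcting for length was an alternative added after the data had been seen, and whether RNA quality or fragment size differed between the libraries was not tested.

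**Figure D4:**
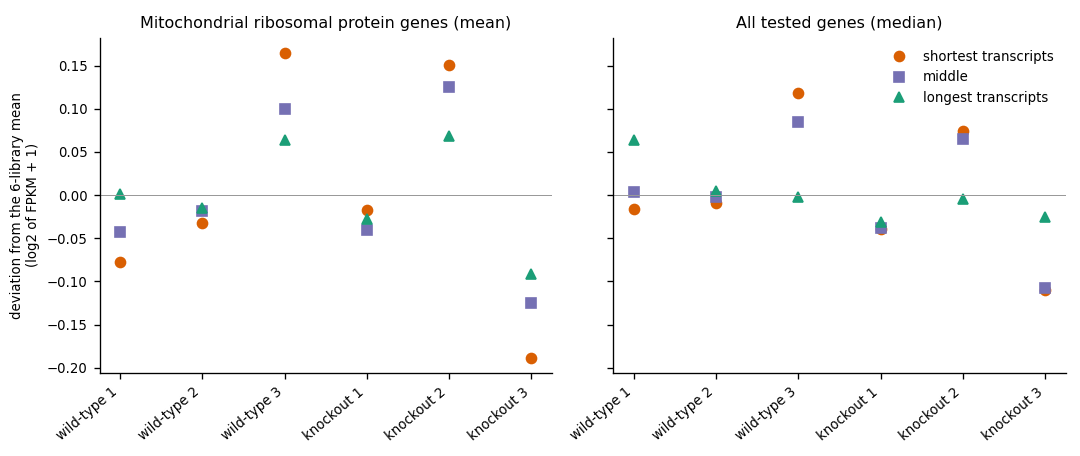
Mean deviation of members (left) and median deviation of all tested genes (right) from the 6-library mean, log2 of FPKM + 1, for transcripts of up to 811 bases, of middle length, and above 1420 bases. In wild-type 3 and knockout 2 the short transcripts are highest, in knockout 3 they are lowest, and the long transcripts of all genes stay near 0 in these libraries.

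Variation between libraries exceeded 1.5-fold, from lowest to highest, in 10 members (6 large, 4 small), against 29.2% of all tested genes, without matching for level. The median member varied 1.26-fold. Mrps6 (chr16:92058336-92112227) varied most, 1.85-fold. It measured 50.5, 56.4 and 81.1 FPKM in wild-type kidneys against 43.9, 80.2 and 47.9 FPKM in knockout kidneys, with wild-type 3 and knockout 2 near 80 FPKM and the other 4 libraries at or below 56.4 FPKM. Its largest exon overlap, 19.9% of its exon bases, is with the gene model Gm49711 on the same strand. Its exons also overlap those of Slc5a3, by a share that was not recorded. Slc5a3, the inositol transporter that medullary cells use against osmotic stress, had 15.6, 18.7 and 26.4 FPKM in wild-type kidneys against 9.69, 15.9 and 12.7 FPKM in knockout kidneys. The 7 thick ascending limb markers, of which 0 were at 0, deviated by -0.10, -0.02 and 0.20 in wild-type and -0.29, 0.19 and 0.02 in knockout, and summed to 1642–2094 FPKM and 1439–2186 FPKM. Their part in the values of Mrps6 was not tested.

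Mrps28 (19.7, 24.7 and 30.2 FPKM in wild-type kidneys against 24.0, 27.4 and 18.5 FPKM in knockout kidneys) and Mrps21 were the other variable genes of the small subunit beside Mrps25. In the large subunit these were Mrpl24, Mrpl23, Mrpl48, Mrpl36, Mrpl58 and Mrpl33. Mrpl48 departed from the shared pattern, with 12.2, 10.2 and 7.97 FPKM in wild-type kidneys against 11.1, 11.9 and 7.81 FPKM in knockout kidneys, so that wild-type 3 was among its lowest libraries. Mrps31 was lowest in wild-type 3, at 13.8 FPKM against 16.3–18.5 FPKM in the other 5, and so was Mrpl3, at 18.5 FPKM against 20.9–24.2 FPKM. In all, 5 members were lowest in wild-type 3, with Mrpl16, Mrpl44 and Mrps10 the others. Mrpl48, Mrps31, Mrpl3, Mrpl16 and Mrpl44 were singled out after their values were seen.

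**Figure D5:**
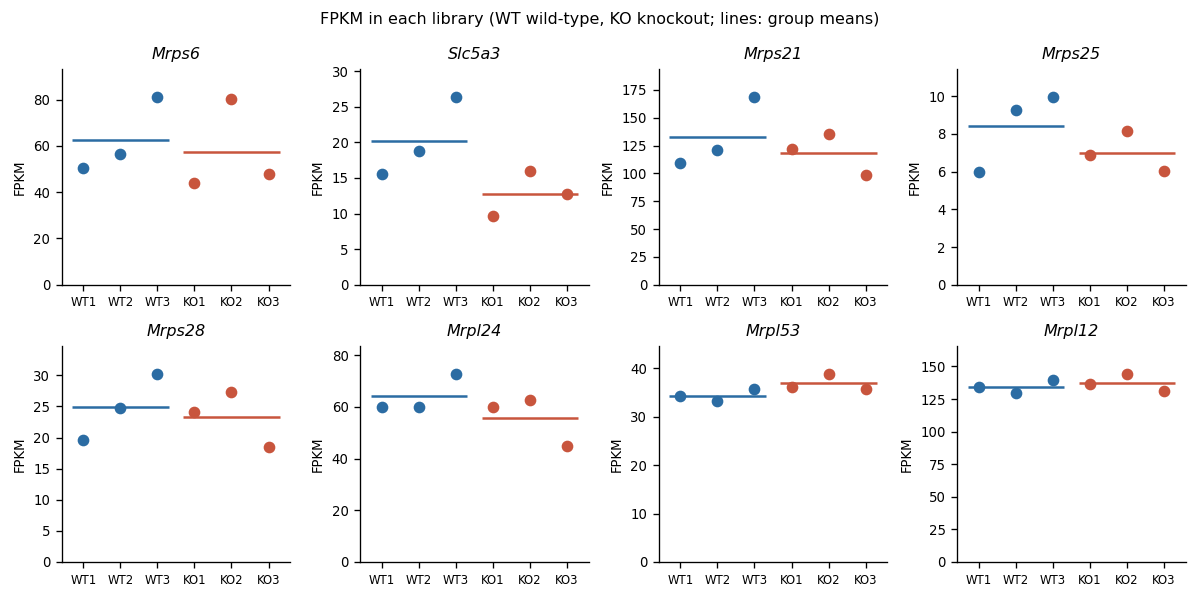
FPKM in each library for 7 members and Slc5a3, on axes that start at 0; points are libraries and lines are group means. Mrps6 reaches about 80 FPKM in WT3 and KO2 and 43.9 to 56.4 FPKM elsewhere, Mrpl12 is nearly level, and in Mrpl53 the lowest knockout library lies just above the highest wild-type library.

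The genes are spread over 17 chromosomes, 11 of them on chromosome 11. A neighbour on the opposite strand starts within 1000 bases of the start of 33 members (42.3%), against 10.9% of 21842 protein-coding genes and 16.6% of the tested genes. Several of these neighbours also serve mitochondria. Mrpl46 and Mrps11 start close together on opposite strands, a large-subunit and a small-subunit gene at the same locus, at 22.1–27.0 FPKM and 17.0–24.8 FPKM. Mrps12, for the accuracy protein of the decoding site (24.8–27.7 FPKM), is paired with Sars2, a mitochondrial seryl-tRNA synthetase gene (5.37–6.49 FPKM). Mrpl43 (26.9–30.4 FPKM) is paired with Twnk, the mitochondrial DNA helicase gene (7.82–9.29 FPKM). Mrps27 (13.6–14.2 FPKM) and Ptcd2, for another pentatricopeptide repeat protein (15.1–18.9 FPKM), have similar levels.

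Complex I genes form further pairs. Mrpl36 (23.1–35.5 FPKM) starts beside Ndufs6 (117–148 FPKM), and Mrpl47 (13.8–15.9 FPKM) beside Ndufb5 (120.3–145 FPKM). Mrpl49 (23.6–27.4 FPKM) starts beside Fau, which encodes a cytosolic ribosomal protein (234–300.1 FPKM). In each of these 3 pairs the neighbour was higher than the mitoribosomal gene in every library. Exons of 33 members overlap those of another gene, and strand-specific counting is not known for these values. For Mrps34 the overlap with Mapk8ip3, on the opposite strand, takes in 63.4% of exon bases, for Mrpl19 with Gcfc2 36.0% and for Mrpl24 with Rrnad1 26.3%. Whether reads of a neighbour entered these levels was not tested.

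RefSeq promoter windows (250 bases before to 50 after the start, GRCm38.p6) were found for 69 of the 78 members and were searched on both strands for fixed letters. The core letters of NRF1 sites (CGCATGCG), ETS or GABP sites (CCGGAAG) and YY1 sites (AAGATGGC) were chosen because these factors are known regulators of nuclear genes for mitochondrial proteins. NRF1 letters were in 7 member windows (10.1%), against 4.17% of 9809 tested genes and 2.07% of all 27025 genes. ETS letters were in 26 (37.7%, against 20.1% and 9.93%) and YY1 letters in 12 (17.4%, against 5.4% and 3.19%). At least 1 of the 3 was in 38 windows (55.1%), against 27.2% of tested genes and 14.1% of all genes. By subunit, ETS letters were in 15 of 43 large and 11 of 26 small, NRF1 letters in 6 and 1, and YY1 letters in 6 and 6.

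More general promoter letters were searched too. SP1 letters (GGGCGG) were in 34 windows (49.3%, against 67.5% of tested genes and 38.2% of all genes), NF-Y letters (CCAAT) in 27 (39.1%, against 42.3% and 41.1%) and TATAAA in 5 (7.25%, against 9.09% and 15.7%). In 2 members, matches of different motifs overlapped. A match is a run of letters and not a bound site. The 100 bases before a RefSeq transcript start are shown for 3 members, Mrpl22 because it holds both NRF1 and ETS letters, and Mrps18a and Mrpl58 because of their particular places, with the matches in capitals. Mrpl22 is at chr11:58171564-58171663, Mrpl58 at chr11:115403652-115403751 and Mrps18a at chr17:46110904-46111003, all on the plus strand. The starts used for Mrpl22 and Mrpl58 lie inside the annotated genes, which begin at 58170043 and 115403724. The ETS letters marked for Mrpl58 thus lie inside the annotated gene.
Mrpl22: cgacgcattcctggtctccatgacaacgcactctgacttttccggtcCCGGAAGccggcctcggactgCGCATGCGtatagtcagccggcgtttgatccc
Mrpl58: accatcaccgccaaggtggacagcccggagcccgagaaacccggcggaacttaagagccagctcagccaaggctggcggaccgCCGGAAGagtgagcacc
Mrps18a: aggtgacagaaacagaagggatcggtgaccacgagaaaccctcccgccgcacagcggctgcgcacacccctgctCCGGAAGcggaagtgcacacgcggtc
Of these 3 genes, Mrpl22 had 21.3, 26.7 and 30.6 FPKM in wild-type kidneys against 28.1, 28.6 and 24.7 FPKM in knockout kidneys. Its highest library was 1.44 times its lowest, against 1.53 times for Mrpl58 and 1.12 times for Mrps18a.

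Genes that build, serve and regulate the mitoribosome were likewise without a call in limma after adjustment over all tested genes. The 5 subunits named by other symbols, Dap3, Chchd1, Aurkaip1, Ptcd3 and Gadd45gip1, all had negative fold changes, with a median of -0.04. Over all tested genes the median was also -0.04, and 35.1% were positive. Dap3, for a GTP-binding protein of the small subunit, had 22.8, 29.0 and 21.0 FPKM in wild-type kidneys against 19.7, 35.5 and 19.5 FPKM in knockout kidneys, the widest spread of these 5. Of 28 assembly factor genes, 10 were positive and 18 negative (median -0.01), beside 35.1% of all tested genes positive. Without overlap, 1 was higher and 3 were lower in knockout, beside 2.01% and 8.57% of all tested genes. Mterf3, whose product acts on mitochondrial transcription and large-subunit assembly, had 17.0, 15.5 and 16.9 FPKM in wild-type kidneys against 12.5, 15.2 and 12.3 FPKM in knockout kidneys. These groups did not overlap, and the log2 fold change was -0.29 (SE 0.10; limma adjusted p = 0.942; exact permutation p = 0.1). Mrm3, a ribosomal RNA methyltransferase gene (6.39–7.16 FPKM in wild-type, 5.29–6.22 FPKM in knockout), and Mief1 (6.39–7.28 and 5.79–6.02 FPKM) were the others lower in knockout, and Mpv17l2 (16.4–18.2 and 18.7–19.2 FPKM), named after its values were seen, was higher. None of these passed the test.

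Of 19 translation factor genes, 12 were positive and 7 negative (median 0.03), beside 35.1% of all tested genes positive. Without overlap, 1 was higher and 2 were lower in knockout, beside 2.01% and 8.57% of all tested genes. Tsfm, the elongation factor that recharges EF-Tu, had 25.2, 24.3 and 23.1 FPKM in wild-type kidneys against 29.7, 27.5 and 25.6 FPKM in knockout kidneys, higher in knockout without overlap. Its log2 fold change was 0.18 (SE 0.09; limma adjusted p = 0.973). Mtrf1l, a release factor gene, had 3.82, 3.21 and 3.62 FPKM in wild-type kidneys against 3.02, 2.96 and 2.98 FPKM in knockout kidneys, and Pdf, for the deformylase of new chains, had 23.5–27.0 FPKM and 21.3–23.2 FPKM. Both were lower in knockout without overlap and did not pass the test.

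Of 17 mitochondrial tRNA synthetase genes, 11 were positive and 6 negative (median 0.03), beside 35.1% of all tested genes positive. Without overlap, 1 was higher and 2 were lower in knockout, beside 2.01% and 8.57% of all tested genes. Tars2 (12.3–13.5 FPKM in wild-type, 10.9–11.6 FPKM in knockout) and Yars2 (14.0–14.6 FPKM, 12.6–13.2 FPKM) were lower in knockout without overlap. Hars2 (11.95–12.6 FPKM, 12.65–13.1 FPKM), named after its values were seen, was higher without overlap, and Lars2 was high in knockout 3 alone, at 34.6 FPKM against 20.9–22.9 FPKM elsewhere. None of them passed. A list of 19 genes covered the replication and expression of mitochondrial DNA, with processing and decay of its RNA included. Of these, 8 were positive and 11 negative (median -0.02), beside 35.1% of all tested genes positive. Twnk, Polg2 and Mterf2 had the smallest p, with log2 fold changes of -0.10, 0.13 and 0.17.

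Of 9 regulators of mitochondrial biogenesis, 3 were positive and 6 negative (median -0.05), beside 35.1% of all tested genes positive. Without overlap, 0 were higher and 2 were lower in knockout, beside 2.01% and 8.57% of all tested genes. Gabpb1, the partner subunit of the ETS factor GABP, had 5.40, 4.44 and 5.22 FPKM in wild-type kidneys against 3.82, 4.30 and 3.69 FPKM in knockout kidneys, without overlap. Its log2 fold change was -0.28 (SE 0.10; limma adjusted p = 0.942; exact permutation p = 0.1). Nrf1 had 5.51, 4.76 and 5.97 FPKM in wild-type kidneys against 4.25, 4.95 and 4.71 FPKM in knockout kidneys, and Pprc1, a coactivator of the PGC-1 family, 3.01–3.35 FPKM and 2.36–2.97 FPKM. Pprc1 did not overlap between the groups and Nrf1 did.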

How the data were processed

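Kidney RNA of 3 wild-type and 3 Hspa8 knockout libraries was analysed from the FPKM per gene that the authors deposited. Per the labels' protocols, a SMARTer mRNA kit served to make libraries from total RNA; per the submitters' processing notes the builds are GRCm38 and mm10, names of the same assembly. Aligner, counting method, annotation and strandedness were not given in the sources used here. Knockout columns carry "A8" and a number and were matched to the knockout titles of that number. FPKM hold no read totals, so depth is unknown and no interval needing it is given.

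The tests used limma 3.58.1 (R 4.3.3) on log2(FPKM + 1), with group as the sole term, with a mean-variance trend, two-sided, Benjamini-Hochberg over 12174 genes with a mean of at least 1 FPKM, after the same code had been tested on simulated data. This scale understates changes of low genes. Lengths, overlaps and neighbouring starts came from GENCODE M21, positions and promoters from RefSeq GRCm38.p6. Named members are those with the 5 smallest p in each subunit, those without overlap between groups, the 3 highest and 3 lowest of each subunit, those with a particular place, and up to 3 per related list. The members and lists were chosen with earlier results of these data known. Deviations from the group mean in same-numbered libraries correlated over genes with r of 0.31, -0.21 and -0.32. Such deviations cancel out within each group, so a pairing by number could be neither shown nor excluded. The main test used no pairing. Other pseudocounts, filters, scalings, library exclusions and a length correction were tried.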

Additional observations from a re-analysis of the deposited data

How the results depend on the processing

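Under the 16 alternatives in which the test was refitted, 0 members were called. Under these and with the proteins sorted by place, the median fold changes of both subunits and their difference moved by less than the spread between replicates, although the medians changed sign with scaling, with the length correction and without wild-type 3 or knockout 3. Genes called in the whole table were 0, except 5 without knockout 2 and 5 without wild-type 3 and knockout 2 together, so leaving out 1 replicate gave 0 to 5. Members with a positive fold change were 25 (35.1% of all tested genes), 42 with library sums equalised (49.8%) and 49 with library medians equalised (53.5%). There were 15 without those 2 libraries (27.8%) and 47 with the length trend removed (52.1%). Leaving out 1 replicate gave 11 to 49 (32.2% to 41.3%). Members without overlap were 1, and 7, 6, 21 and 6 under the same settings. They were 3 with quantile normalisation, and 2 to 19 leaving out 1 replicate. Of all tested genes, 10.6% did not overlap in the main setting, 9.98% with sums equalised and 10.6% with the length trend removed. With medians equalised, 4.9% were higher and 5.1% lower without overlap. The share was 38.0% without wild-type 3 and knockout 2 together, 9.87% with quantile normalisation, and 17.0% to 28.1% leaving out 1 replicate. The causes were not tested. Of 160 refits of the 10 members with the smallest p, 159 kept their direction; Mrps21 reversed to 0.032 without wild-type 3 (-0.28 to 0.032 over the replicates left out). The lowest adjusted limma p among these refits was 0.668. With the replicate number as a block, 25 members were positive and 0 genes were called. With a minimum mean of 5 FPKM, Mrpl19 was left out. Depth is unknown, so how far it limits low members cannot be given.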
